A study of Saccharomyces cerevisiae with 28 samples.

Results

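The 33 genes described here encode the proteasome and its activator in the budding yeast Saccharomyces cerevisiae. They were chosen by systematic name as the 14 genes of the 20S core, 18 genes of the 19S regulatory particle and RPN4 (YDL020C). SEM1, which encodes a small protein of the 19S particle, is not among the 18 and is described with the associated genes. All 33 were found among the 7125 genes of the expression table. The rule that picks them is their known identity. RNA sequencing was performed on 8 strains: acs2-ts, a temperature-sensitive mutant of an acetyl-CoA synthetase, with its own wild type; pyk1, a mutant of the pyruvate kinase gene that the annotation calls CDC19, with its own wild type; and sam1, ser33 and shm2, mutants of an S-adenosylmethionine synthetase, a phosphoglycerate dehydrogenase and a serine hydroxymethyltransferase, with BY4741, a common laboratory strain, as their wild type. Each strain had 2 biological replicates, called cultures below and numbered as in the labels, all grown in the rich glucose medium YPD to an OD600 from 0.7 to 1.0. In 6 strains the RNA of each culture was made into libraries a second time, but not in pyk1 or its control, and the table holds 28 libraries. The labels give neither the growth temperature nor the pyk1 allele, so whether acs2-ts was sampled at a restrictive temperature is unknown. They do not say whether the sam1, ser33 and shm2 strains are 1 clone each.

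The proteasome degrades proteins that carry ubiquitin chains. Its barrel-shaped 20S core is built of alpha rings, which gate the entry, and beta rings, which hold the cutting sites, and the 19S particle binds ubiquitin, removes it and feeds the unfolded substrate into the core with a ring of ATPases. In yeast the genes of both particles are transcribed together by Rpn4, a zinc-finger activator that binds the proteasome-associated control element (PACE), and Rpn4 protein is itself a short-lived substrate of the proteasome, so that a loss of proteasome activity lets it accumulate.

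The PACE sequence GGTGGCAAA was searched on both strands of the 300 bases before the annotated start of each gene in the R64 reference of RefSeq, the genome that the name sacCer3 in the submitters' processing notes also denotes. It was present before 27 of the 32 subunit genes (84.4%) and before 73 of 6001 protein-coding genes with a full window (1.22%). Its first 6 letters, GGTGGC, which the longer sequence contains, were present before 29 of the 32 (90.6%) and 6.45% of all. The 27 sites lay 75 to 174 bases before the start (median 111), with 19 on the strand of the gene and 8 on the other. The 9-letter sequence was absent from this window for PRE5, PUP1, RPN8, RPN10 and RPN13 and also for RPN4 itself. The sites of the subunit genes that lay at the ends of the comparisons below are printed with 10 bases on each side, 5′ to 3′ on the strand that carries the site, with the PACE letters in capitals.
PRE1 (chrV:177683-177711, + strand): aaatctttacGGTGGCAAAaaataaagaa
PRE3 (chrX:435035-435063, + strand): aacggaatccGGTGGCAAAaaagggaaaa
PUP2 (chrVII:999226-999254, - strand): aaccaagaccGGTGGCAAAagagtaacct
SCL1 (chrVII:475337-475365, + strand): ctatccttacGGTGGCAAAttggtgtgtg
PUP3 (chrV:349511-349539, - strand): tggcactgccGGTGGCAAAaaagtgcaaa
RPT6 (chrVII:411352-411380, - strand): atgcgagcgaGGTGGCAAAagttgtaata
RPN1 (chrVIII:164838-164866, - strand): tgtgttttacGGTGGCAAAaggcgagcac
RPN2 (chrIX:220801-220829, - strand): atttattttcGGTGGCAAAactggataca
RPN5 (chrIV:190776-190804, + strand): ttgacttttcGGTGGCAAAatgcaaaggg
These letters describe the genes and show no binding. Among the subunits with a site, PRE1, PRE3 and PUP2 had the 3 lowest changes and RPN5 the highest in acs2-ts. PUP3 and SCL1 had the highest and RPN1 and RPN2 the lowest in ser33, and RPT6 had the highest and RPN2 and RPN1 the lowest in sam1.

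Values are RPKM, reads scaled by the length of the gene and by the mapped reads of the library, which allows levels to be compared between genes and between libraries only relative to each library's total. A change in total RNA per cell cannot be seen in such values. The whole-read steps in the table gave totals of 4330000 to 36530000 reads per library (median 14820000). Each of the 31 subunit genes with 1 exon had at least 138 reads and RPN4 at least 940 in every library. The second library of a culture gave a lower subunit median than the first in 12 of 12 cultures, by 0.04 to 0.36 on the log2 scale. The transcript named in the label was near 0 where it could be checked: SAM1 at 0.249 ± 0.068 RPKM in sam1 (SD, n = 2) beside 60.7 ± 38.0 in BY4741, SER33 at 0.298 ± 0.027 in ser33 beside 31.9 ± 4.32, and SHM2 at 0.180 ± 0.042 in shm2 beside 219.5 ± 134.9. ACS2 was at 531 ± 36.3 RPKM in acs2-ts and 233 ± 19.9 in its wild type, and the label of pyk1 cannot be checked by a level.

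The transcript levels of the 32 subunit genes lay within a few-fold of each other in each culture. Within a culture the highest subunit lay 2.05 to 3.72 times above the lowest on the RPKM scale, and the SD over the 32 genes was 0.26 to 0.43 on the log2 scale. In BY4741 the subunit median was 118 RPKM in culture 2 and 121 in culture 3, 2.11 and 2.16 above the median of all genes of the same culture on the log2 scale. The alpha genes had a median level of 139 ± 5.03 RPKM in BY4741 (SD, n = 2), the beta genes 120 ± 0.0899, the ATPase genes 109 ± 5.67 and the non-ATPase genes 103 ± 1.59. PRE6 (YOL038W), an alpha subunit, was among the 4 highest subunits in all 8 strains, and RPN11 (YFR004W), the deubiquitinating enzyme of the 19S lid, RPN12 (YFR052W), a lid subunit, and RPN13 (YLR421C), a ubiquitin receptor, ranked between 26 and 32 of the 32 in all 8. Spearman's rho of the 32 strain mean levels between 2 strains ranged from 0.535 to 0.980 over the 28 pairs of strains, as a description over genes that share libraries. It was 0.980 between BY4741 and ser33 and 0.548 between BY4741 and the wild type of acs2-ts.

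**Figure D1:**
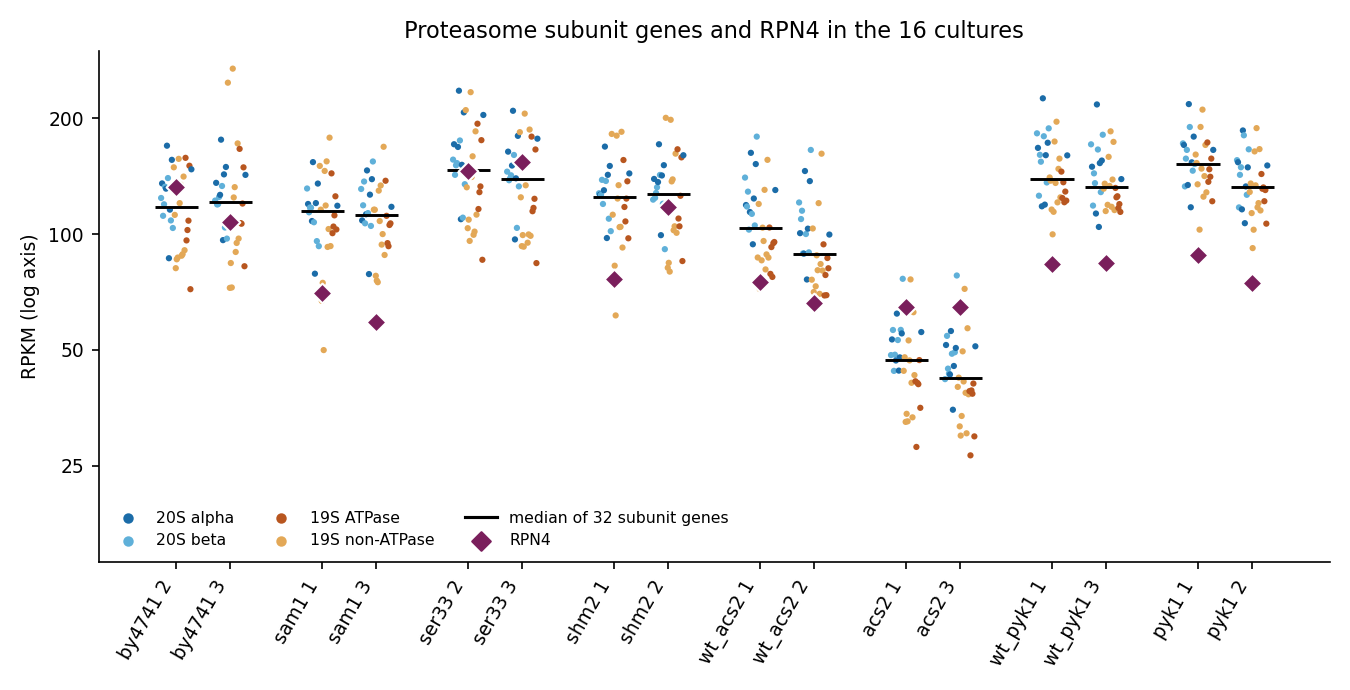
Level of each of the 32 subunit genes (points, coloured by role), their median (black bar) and RPN4 (diamond) in the 16 cultures, in RPKM on a log axis, with libraries of a culture averaged on the log2 scale. The subunit median of the 2 acs2 cultures lies at 47.0 and 42.2 RPKM, below all other cultures, while RPN4 lies above the median in both. The position of the acs2 cultures relative to the others rests on the deposited scaling.

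The BY4741 cultures differed from each other in a few members. RPN2 (YIL075C) and RPN1 (YHR027C), the scaffold subunits of the 19S base, stood at 157 and 149 RPKM in culture 2 and at 270 and 248 in culture 3, while the median subunit differed by 0.02 on the log2 scale. RPN4 stood at 133 and 107 RPKM in the same cultures. In shm2, RPN4 stood at 76.5 RPKM in culture 1 and 117 in culture 2, a difference of 0.61 on the log2 scale against 0.03 for the median subunit. In sam1, PUP3 (YER094C), a beta subunit without proteolytic activity, stood at 93.1 and 155 RPKM.

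Some members changed place among the 32 from strain to strain, and those given here were chosen after their values were seen. PUP3 ranked 24 of 32 in BY4741, 27 in shm2, 19 in ser33 and 11 in sam1. It ranked 1 in both acs2-ts and its wild type, 3 in the wild type of pyk1 and 9 in pyk1. RPN1 ranked 2 in BY4741, 1 in shm2, 3 in ser33 and 7 in sam1. It ranked 26 in the wild type of acs2-ts, 20 in acs2-ts, 17 in the wild type of pyk1 and 15 in pyk1. The ATPase genes RPT1 (YKL145W) and RPT6 also stood differently to each other. RPT1 was at 158 and 167 RPKM in BY4741, 194 and 179 in ser33 and 144 and 138 in sam1, and RPT6 at 71.9 and 82.5, 85.8 and 84.1, and 103 and 107 in the same strains. In the wild type of acs2-ts RPT1 was at 104 and 94.1 RPKM and RPT6 at 95.4 and 81.5, so that the ranges of their levels overlapped there and not in BY4741. RPN8 (YOR261C), a lid subunit, kept a rank between 1 and 7 in all 8 strains.

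Across strains, RPN4 was highest in ser33 and lowest in sam1 and acs2-ts under the deposited scaling. Its mean level was 150 ± 5.32 RPKM in ser33 (SD, n = 2 in each strain), 120 ± 18.1 in BY4741, 96.9 ± 28.9 in shm2, 83.9 ± 0.25 in the wild type of pyk1, 81.4 ± 9.44 in pyk1, 70.6 ± 6.37 in the wild type of acs2-ts, 64.7 ± 0.055 in acs2-ts and 64.7 ± 8.07 in sam1. Neighbours in this order had overlapping cultures except ser33 with BY4741 and acs2-ts with its wild type, and neither of those neighbouring differences passed the test given below. The order of the subunit median was another one, from 143 ± 14.1 RPKM in pyk1 and 143 ± 5.62 in ser33 to 96.5 ± 10.6 in the wild type of acs2-ts and 44.6 ± 3.42 in acs2-ts. The place of acs2-ts in both orders rests on that scaling. After median-of-ratios scaling, in which each library is divided by the median of its ratios to the geometric mean of all libraries, RPN4 was at 174 ± 12.2 in acs2-ts, above the 131 ± 4.52 of ser33 and the 65.8 ± 0.25 of its own wild type, and sam1 at 55.7 ± 6.76 and pyk1 at 56.6 ± 5.96 had the lowest means, with overlapping cultures. The subunit median was then 119 ± 0.84 in acs2-ts against 89.9 ± 1.41 in its wild type, and 93.4 ± 2.38 in the wild type of pyk1 against 104 ± 2.84 in BY4741.

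RPN4 was also set against the subunits of its own culture, as its log2 level minus the subunit median, which the scaling of libraries hardly changes. The value was 0.45 and 0.61 in the acs2-ts cultures and -0.47 and -0.43 in those of its wild type. It was 0.17 and -0.17 in BY4741, -0.01 and 0.15 in ser33, -0.70 and -0.11 in shm2, and -0.70 and -0.92 in sam1. Both cultures of pyk1 (-0.79 and -0.82) and of its wild type (-0.73 and -0.65) were low. The acs2-ts cultures lay above the other 14, and the sam1 cultures lay below both cultures of BY4741. With 2 cultures a strain, an exact permutation test of such a single value cannot go below p = 0.333 (two-sided).

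**Figure D2:**
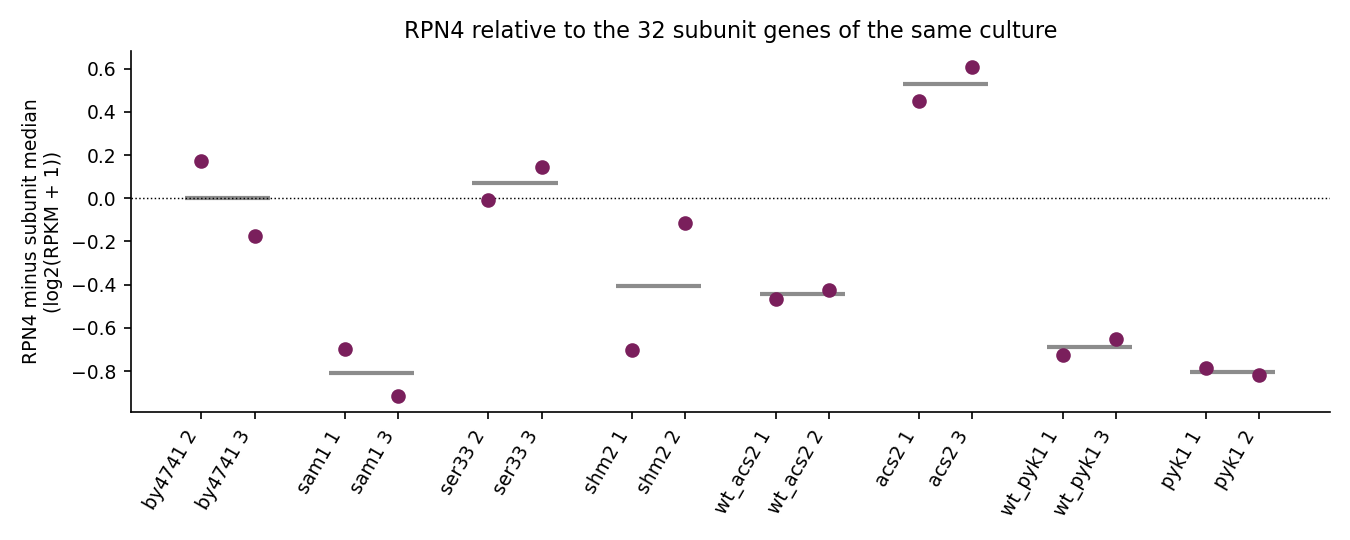
RPN4 level minus the median of the 32 subunit genes in the same culture, both as log2(RPKM + 1), for each of the 16 cultures (points) with the strain mean (grey bar). The 2 acs2 cultures are at 0.45 and 0.61, above the dotted line at 0, and those of sam1 at -0.70 and -0.92.

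To find which members changed in each mutant, the 2 cultures of the mutant were compared with those of its control strain with limma on log2(RPKM + 1) values, with Benjamini-Hochberg adjustment over all 7125 genes and an adjusted p under 0.05 as the threshold. Fold changes below are on that log2 scale with their standard error (SE).

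In acs2-ts, 32 of the 33 members fell under the deposited scaling, all of them subunit genes, beside 78.1% of all genes called lower. The median change of the subunits was -1.09, and that of all 7125 genes was -1.27. PRE1 (YER012W), a beta subunit, stood at 140 and 121 RPKM in the wild type and at 48.5 and 42.0 in acs2-ts, and fell by 1.51 (SE 0.13, limma adjusted p = 0.000173). PRE3 (YJL001W), a catalytic beta subunit, fell from 129 and 115 to 44.1 and 44.7 RPKM (-1.44 ± 0.11), and PUP2 (YGR253C), an alpha subunit, from 152 and 137 to 55.2 and 50.6 (-1.44 ± 0.11). The smallest falls were those of RPN5 (YDL147W), a lid subunit, at 130 and 120 against 76.3 and 72.1 RPKM (-0.75 ± 0.10), and PUP1 (YOR157C), a catalytic beta subunit, at 105 and 89.7 against 56.4 and 49.3 (-0.87 ± 0.13). The groups of cultures did not overlap for any of these genes. By role, the median was -1.15 for the alpha genes, -1.05 for the beta genes, -1.17 for the ATPase genes and -1.06 for the non-ATPase genes.

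RPN4 did not pass the test in acs2-ts. It stood at 75.1 and 66.1 RPKM in the wild type and at 64.7 in both acs2-ts cultures, a change of -0.12 ± 0.11 with no overlap of the cultures (limma adjusted p = 0.355, from 0.00144 to 0.751 over its alternatives). Of all genes, 85.1% had a change at or below that of RPN4. The 10 most abundant genes took 27.1% to 32.3% of the reads of one-exon genes in the acs2-ts libraries and 11.99% to 14.7% in those of its wild type, and the part of this shift in the result was not tested. The direction of the fall rests on the scaling. Under median-of-ratios scaling, 24 of the 33 members were called higher in acs2-ts, beside 28.5% of all genes, the median of the subunits was 0.40 with that of all genes at 0.03, and RPN4 rose by 1.38 ± 0.07 (limma adjusted p = 0.00144). Under that scaling PRE1 was at -0.01 ± 0.05 and RPN5 at 0.76 ± 0.06. Under both scalings RPN4 had the highest and PRE1 the lowest value of the 33, and under the deposited one RPN4 lay 0.97 above the subunit median.

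**Figure D3:**
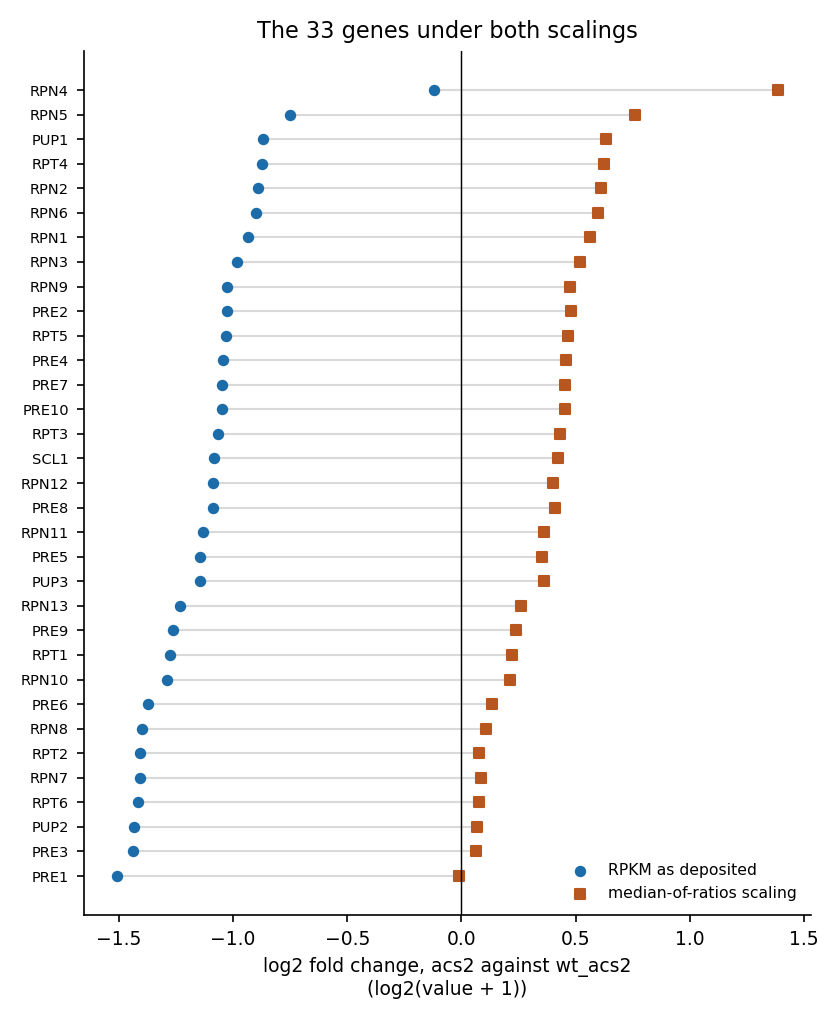
Log2 fold change of the 33 genes in acs2 against its wild type, with RPKM as deposited (circles) and after median-of-ratios scaling (squares). All subunit genes are below 0 under the first and all but PRE1 above 0 under the second, and RPN4 is the highest of the 33 under both.

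In ser33, the mean log2 levels of the subunit genes were all slightly above those in BY4741, and none passed the test. On the RPKM scale the mean of RPN1 was 197 in ser33 and 199 in BY4741. Of the 33 members, 29 were higher in both ser33 cultures than in both BY4741 cultures, beside 18.8% of all genes. The median change of the subunits was 0.21, that of all genes -0.02, and 32 of 32 subunit genes had a change above 0. The number of members with an adjusted p under 0.05 in limma was 0, beside 0.014% of all genes, and 10 members had an unadjusted p under 0.05, beside 6.43% of all genes. SCL1 (YGL011C), an alpha subunit, stood at 147 and 143 RPKM in BY4741 and at 204 and 177 in ser33 (0.39 ± 0.12, limma adjusted p = 0.685). PRE6 stood at 170 and 176 against 236 and 209 (0.36 ± 0.11), and PUP3 at 104 and 97.4 against 135 and 133 (0.41 ± 0.23). At the other end were PUP1 (0.01 ± 0.11), RPN1 (0.03 ± 0.26) and RPN2 (0.09 ± 0.26), whose cultures overlapped between the strains. Over the alternatives their changes ran from -0.03 to 0.05, -0.33 to 0.40 and -0.29 to 0.48. By role the medians were 0.30 for the alpha genes, 0.28 for the beta genes and 0.19 for both the ATPase and the non-ATPase genes. RPN4 stood at 133 and 107 RPKM in BY4741 and at 146 and 154 in ser33 (0.33 ± 0.23, limma adjusted p = 0.847, from 0.538 to 1 over its alternatives).

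In sam1, the subunit genes spread to both sides of BY4741 while RPN4 was lower in both cultures, and no member passed the test. The number with an adjusted p under 0.05 in limma was 0 of 33, beside 16.3% of all genes, and 5 had an unadjusted p under 0.05, beside 41.7%. The median change of the subunits was -0.10, with 21 below 0 and 11 above. RPN4 stood at 133 and 107 RPKM in BY4741 and at 70.4 and 59.0 in sam1, a change of -0.88 ± 0.23 (limma adjusted p = 0.0513, from 0.0359 to 0.225 over its alternatives). With only genes of a mean of at least 1 RPKM it was called lower (adjusted p = 0.0359), as it was under median-of-ratios scaling (0.0494). RPT6 (YGL048C), an ATPase subunit, was the highest member, at 71.9 and 82.5 RPKM in BY4741 and 103 and 107 in sam1 (0.44 ± 0.12, limma adjusted p = 0.0548). RPN2 (-0.58 ± 0.26) and RPN1 (-0.54 ± 0.26) were the lowest subunits, and their BY4741 cultures were those that stood far apart. PUP3 (0.25 ± 0.23) and RPN8 (0.15 ± 0.14) had overlapping cultures. Without culture 1 of sam1, PUP3 was called higher, at 0.62 ± 0.11 (limma adjusted p = 0.0459). In all, 14 members were lower in both sam1 cultures than in both BY4741 cultures, beside 35% of all genes.

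In shm2 and in pyk1, the median change of the subunit genes was small and no member passed the test. In shm2 the subunit median change was 0.03 and the subunits ranged from -0.18 for RPN13 to 0.24 for RPT6. No member passed the test in limma (0 of 33, beside 0.014% of all genes), and 0 had an unadjusted p under 0.05, beside 6.81%. Both shm2 cultures were above both BY4741 cultures for 10 members, beside 14.6% of all genes, among them RPN6 (YDL097C), a lid subunit, at 87.9 and 89.9 against 104 and 102 RPKM (0.22 ± 0.09) and RPN7 (YPR108W), another lid subunit, at 88.7 and 94.9 against 105 and 105 (0.19 ± 0.09). RPN4 changed by -0.33 ± 0.23 (limma adjusted p = 0.717, from 0.238 to 1 over its alternatives), with overlapping cultures. In pyk1 the subunit median change was 0.04, from -0.22 ± 0.07 for PUP3 to 0.20 ± 0.12 for RPT5 (YOR117W), an ATPase subunit. The number of members called by limma was 0, beside 0% of all genes, and 2 had an unadjusted p under 0.05, beside 14.3%. These were PUP3, at 188 and 181 RPKM in the wild type and 152 and 166 in pyk1, and RPN13, at 114 and 119 against 103 and 103. RPN4 stood at 83.7 and 84.0 RPKM in the wild type and at 88.1 and 74.7 in pyk1 (-0.05 ± 0.10, limma adjusted p = 0.864).

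**Figure D4:**
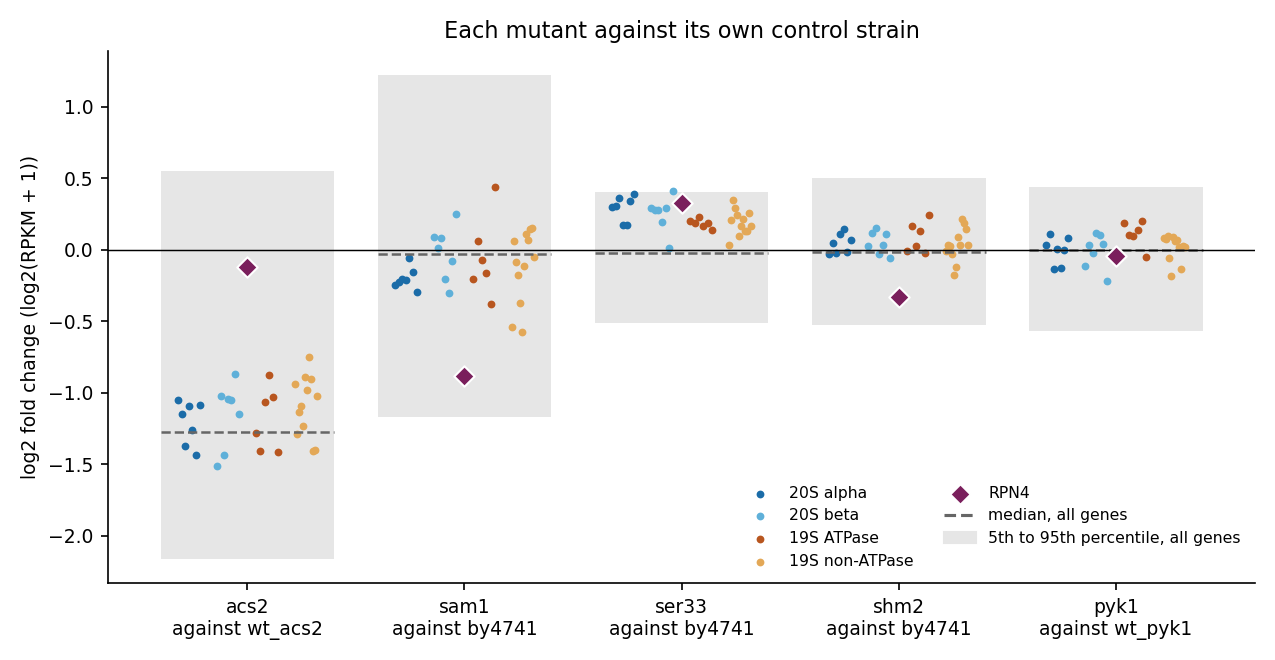
Log2 fold change (log2(RPKM + 1)) of each subunit gene (points, by role) and of RPN4 (diamonds) in each mutant against its own control, with the median (dashed) and the 5th to 95th percentile (grey) of all 7125 genes. RPN4 is at -0.12 in acs2 with the subunit median at -1.09, and at -0.88 in sam1 with the subunit median at -0.10. The direction of the acs2 subunits turns under median-of-ratios scaling.

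The mutants of the BY4741 background were then compared directly. In sam1 against ser33, 12 of the 33 members were lower in sam1, beside 14.6% of all genes, and 28 members were lower in both cultures, beside 36.7%. The median change of the subunits was -0.31, that of all genes 0. RPN4 stood at 70.4 and 59.0 RPKM in sam1 and at 146 and 154 in ser33, and had the largest difference of the 33, at -1.21 ± 0.23 (limma adjusted p = 0.0223, from 0.0124 to 0.141 over its alternatives). Of the 7 alpha genes, 6 were called lower: SCL1 (-0.68 ± 0.12), PRE6 (-0.56 ± 0.11), PRE10 (-0.55 ± 0.11), PRE5 (-0.53 ± 0.10), PUP2 (-0.49 ± 0.11) and PRE8 (-0.38 ± 0.11). SCL1 stood at 119 and 118 RPKM in sam1 against 204 and 177 in ser33. The others called were the beta genes PRE7 (-0.60 ± 0.10) and PRE4 (-0.40 ± 0.11), the ATPase genes RPT5 (-0.56 ± 0.13) and RPT1 (-0.40 ± 0.10) and the lid gene RPN12 (-0.46 ± 0.10). RPT6 was the only member with both sam1 cultures above both ser33 cultures, at 103 and 107 against 85.8 and 84.1 RPKM. The count fell to 8 without culture 1 of sam1, beside 10.8% of all genes, and to 0 in limma without culture 3 of sam1 or without either culture of ser33, where the share of all genes called lower was 0% as well. The median change of the subunits was then -0.32, -0.26 and -0.37 (without culture 3 of sam1, culture 2 of ser33 and culture 3 of ser33). In these fits the lone culture is taken to vary like the other strains. With the second library of each culture alone the count was 10, beside 11.6% of all genes.

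**Figure D5:**
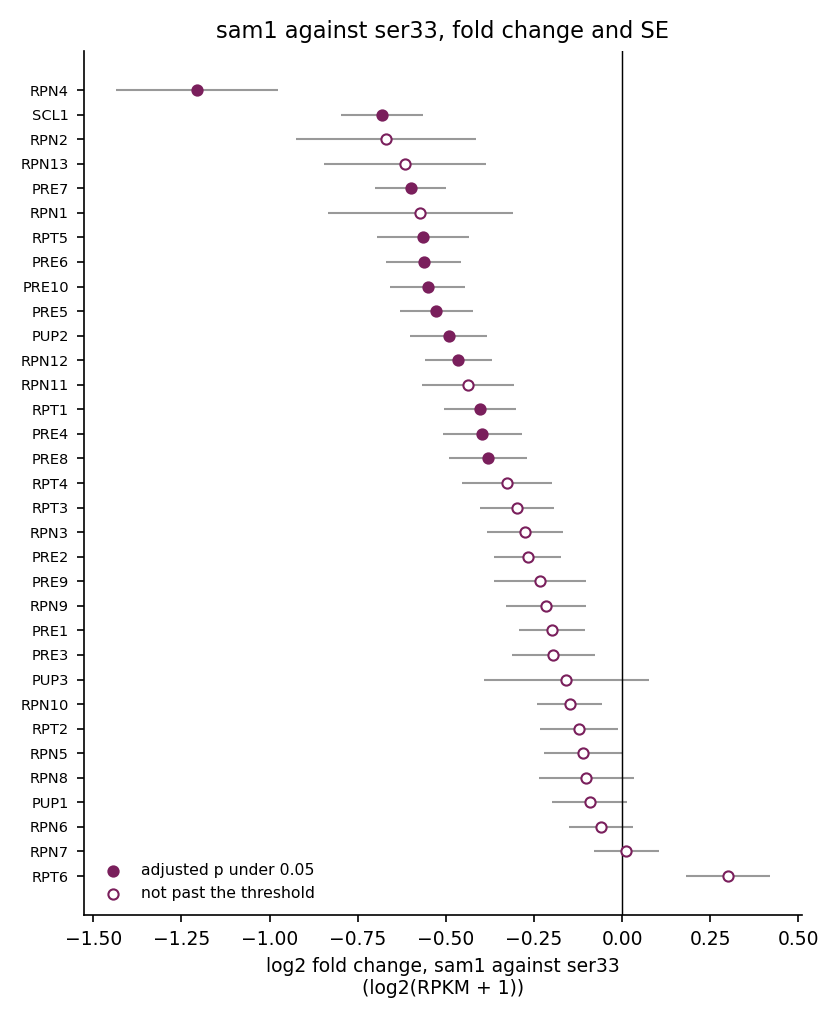
Log2 fold change of the 33 genes in sam1 against ser33 with its SE (bars), filled where the adjusted p was under 0.05. The 12 filled points run from -1.21 for RPN4 to -0.38 for PRE8, and RPT6 lies at 0.30.

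Against shm2, sam1 had 0 members called by limma, beside 0.182% of all genes, with 5 at an unadjusted p under 0.05, beside 21.9%, and 22 members lower in both cultures, beside 25.4%. In ser33 against shm2 the count called by limma was also 0, beside 0.0281% of all genes, with 10 at an unadjusted p under 0.05, beside 15.3%, and 22 members higher in both ser33 cultures, beside 26.9%. RPN4 was at -0.55 ± 0.23 and 0.66 ± 0.23 in the 2 comparisons (limma adjusted p = 0.231 and 0.297). These comparisons share the sam1, ser33 and shm2 cultures with those above.

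The control strains also differed from each other in these genes. Compared with BY4741, the wild type of acs2-ts had 13 members lower, beside 29.6% of all genes, and 1 higher, beside 23.3%. RPN1 was at 87.0 and 76.1 RPKM against 149 and 248 in BY4741 (-1.23 ± 0.22, limma adjusted p = 0.00107), and RPN2 at 104 and 88.1 against 157 and 270 (-1.10 ± 0.21). Of the 6 ATPase genes, 5 were lower, with a median of -0.54 and RPT6 at 0.19, whereas the beta genes had a median of -0.02. PUP3 was the member called higher, at 179 and 166 RPKM against 104 and 97.4 (0.77 ± 0.18). RPN4 was lower, at 75.1 and 66.1 against 133 and 107 RPKM (-0.75 ± 0.19, limma adjusted p = 0.00628, from 0.00498 to 0.0541 over its alternatives). The count of lower members was 6 without culture 2 of this wild type, beside 17.6% of all genes, and 7 without culture 2 of BY4741, beside 21.7%.

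In the wild type of pyk1 against BY4741, 16 members were higher, beside 41.3% of all genes, and RPN4 was the 1 member lower, beside 15.8%. The subunit median change was 0.29 and that of all genes 0.28. RPN4 stood at 83.7 and 84.0 against 133 and 107 RPKM (-0.51 ± 0.19, limma adjusted p = 0.0372, from 0.00254 to 0.216 over its alternatives), and its call was lost without either culture of this wild type and without culture 2 of BY4741. In the fit of only these 2 strains RPN4 was not called either (limma adjusted p = 0.0534). PUP3 was again the highest member (0.87 ± 0.18) and RPN1 the lowest subunit (-0.50 ± 0.22, adjusted p = 0.0695 in limma). Under median-of-ratios scaling 3 members were higher, beside 27.8% of all genes, and 8 lower, beside 28.4%, the subunit median was -0.04 and RPN4 was at -0.83. With the first libraries alone, the kind that both strains have, 14 members were higher, beside 40.2% of all genes, and 2 lower, beside 13%. Strain background and any difference in handling between the control strains cannot be told apart.

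Gene length moved with several of these comparisons. RPN1 and RPN2 are the longest of the 32 subunit genes, at 2982 and 2838 bases, and PUP3 is among the 3 shortest, at 618. Spearman's rho between the length and the log2 fold change of the 32 genes was -0.61 in ser33 against BY4741, -0.52 in the wild type of acs2-ts against BY4741, 0.43 in acs2-ts, 0.45 in pyk1 and 0.01 in sam1. Over 6007 protein-coding genes it was -0.13, -0.24, 0.06, 0.16 and 0.06 in the same order. Between the cultures of 1 strain it reached 0.56 in BY4741 (culture 3 minus culture 2) and -0.61 in sam1 (culture 3 minus culture 1). The part of length in the results was not tested.

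The subunits were also split by the PACE site, as a description. In acs2-ts the 27 with the site had a median change of -1.08 and the 5 without it -1.23, and in ser33 0.20 and 0.25. In sam1 the medians were -0.11 and -0.08. They were -0.33 and -0.15 in sam1 against ser33, and -0.24 and -0.01 in the wild type of acs2-ts against BY4741. Against shm2 they were -0.15 and -0.19 in sam1 and 0.20 and 0.17 in ser33. They were 0.03 and 0.05 in shm2, 0.03 and 0.04 in pyk1, and 0.29 and 0.29 in the wild type of pyk1 against BY4741. The 45 other genes of the table with a PACE site had medians of -1.27 in acs2-ts, 0.08 in ser33 and -0.14 in sam1. Their medians were -0.25 in sam1 against ser33 and -0.29 in the wild type of acs2-ts against BY4741. Of the 5 subunit genes without the site, PRE5 was called lower in sam1 than in ser33 and the other 4 were not, beside 14.6% of all genes. All other subunit genes called lower in that comparison had the site.

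The genes that assemble the proteasome and the ubiquitin pathway that feeds it were read as separate lists of 15 and 18 genes. In acs2-ts all 15 assembly and associated genes were lower under the deposited scaling, beside 78.1% of all genes. Their changes had a median of -1.41 and ran from -1.77 ± 0.13 for IRC25 (YLR021W), a core assembly chaperone, to -0.75 ± 0.16 for TMA17 (YDL110C). TMA17 is a stress-induced assembly chaperone of the 19S particle. Of the ubiquitin pathway genes, 17 were lower, beside the same 78.1%, with UBC5 (YDR059C), a conjugating enzyme, at -1.59 ± 0.21. The exception was UBI4 (YLL039C), the polyubiquitin gene, which rose from 373 and 378 to 434 and 486 RPKM (0.29 ± 0.11, limma adjusted p = 0.0459). Under median-of-ratios scaling 3 assembly genes were higher and 1 lower, and 9 ubiquitin pathway genes were higher. Of all genes, 28.5% were then called higher and 21.9% lower. UBI4 rose by 1.81 ± 0.14 under that scaling. In sam1 against BY4741, SEM1 (YDR363W-A), a small lid protein kept in the list of associated genes, was lower (-0.73 ± 0.17, limma adjusted p = 0.0445) and MUB1 (YMR100W), which works with the ligase that ubiquitinates Rpn4, was higher (0.48 ± 0.11, limma adjusted p = 0.0438). These were the only genes of both lists called there, beside 8.29% of all genes lower and 8% higher. In sam1 against ser33, 7 of the 15 assembly genes were lower and 2 higher, beside 14.6% and 15.5% of all genes. TMA17 stood at 93.5 and 91.0 against 261 and 246 RPKM (-1.45 ± 0.32). UBA1 (YKL210W), the ubiquitin-activating enzyme, stood at 284 and 190 against 531 and 439 RPKM (-1.05 ± 0.24). It was 1 of 5 ubiquitin pathway genes lower, with MUB1 the 1 higher, beside the same shares of all genes. Of the 37 genes of these lists and the regulators below, limma called 0 in ser33, shm2 or pyk1 against their controls. The shares of all genes called there were 0.014%, 0.014% and 0%. An unadjusted p under 0.05 was found for 1, 2 and 3 of the 37, beside 6.43%, 6.81% and 14.3% of all genes.

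Of the 4 factors known to act on the RPN4 promoter, Hsf1, Pdr1, Pdr3 and Yap1, all 4 transcripts were lower in acs2-ts under the deposited scaling. This stood beside 78.1% of all genes. Their changes ran from -1.54 ± 0.14 for PDR3 (YBL005W) to -0.58 ± 0.14 for YAP1 (YML007W). Under median-of-ratios scaling 3 of the 4 were higher, beside 28.5% of all genes, and PDR3 was at -0.29 ± 0.09 (limma adjusted p = 0.0635). In sam1, PDR3 was higher, at 36.5 and 37.5 against 20.5 and 22.4 RPKM in BY4741 (0.76 ± 0.10, limma adjusted p = 0.0331), while RPN4 was at -0.88. YAP1, HSF1 and PDR1 did not pass the test in sam1, where 8% of all genes were called higher and 8.29% lower.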

How the data were processed

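The authors deposited 1 table of RPKM values for 28 libraries, made from ribosome-depleted, stranded RNA libraries. The submitters' processing notes name CASAVA 1.8.2, TopHat2 2.0.13, edgeR and the build sacCer3, with no settings. The 32 columns without values were not used. Multiplying RPKM by gene length gave whole reads for 99.6% to 100% of low values per library (tolerance 0.1, 5678 one-exon genes).

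Libraries of a culture were averaged as log2(RPKM + 1), with no filter, and compared in R 4.3.3 by limma 3.58.1 (lmFit, then eBayes with trend), two-sided. BY4741, sam1, ser33 and shm2 shared 1 model, the other mutants had a model each, and all 8 strains entered for the control strains. Fits were also run on simulated data with large planted changes and the same noise for every gene, which cannot show how small changes fare. Plots used matplotlib 3.10.9 and tables pandas 2.3.3 under Python 3.11.15.

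The members and lists were chosen with earlier results of these data known. All members could be named, with values for RPN4 and the 3 largest and smallest changes per mutant; other genes were the extremes of their lists past the threshold, and those outside this rule were chosen after their values were seen. The 32 subunit genes and RPN4 overlap no other annotated gene. The p-values measure only the spread between the 2 cultures of a strain. That spread is pooled over the strains of a model and drawn by limma towards a trend over all genes.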

Additional observations from a re-analysis of the deposited data

Results flagged for a closer look

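The sam1 and ser33 mutants, both set against BY4741, differed from each other by a test of the difference itself: 12 of the 33 members were lower in sam1 than in ser33, beside 14.6% of all genes. RPN4 had the largest of these differences, at -1.21 ± 0.23 (SE) on the log2 scale, and stood at 0.33 in ser33 and -0.88 in sam1 against the shared BY4741 cultures. RPN4 was lower in 2 of 2 sam1 cultures than in both ser33 cultures. Without culture 3 of sam1 or without either culture of ser33, limma called 0 members and the adjusted p of RPN4 was 0.109 to 0.141, and 0% of all genes were called lower in those fits.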

How the results depend on the processing

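Median-of-ratios scaling turned the fall in acs2-ts: limma called 24 members higher and 0 lower, beside 28.5% and 21.9% of all genes. An unadjusted p under 0.05 was found for 26 members, all higher, beside 58.6% of all genes in either direction. The subunit median was at 0.40 and RPN4 at 1.38, PRE3 at 0.063, PUP2 at 0.067, PUP1 at 0.63 and RPN5 at 0.76. In acs2-ts the count of lower members was 32 under every other alternative that kept all cultures, beside 74.9% to 85.4% of all genes. Leaving out a culture gave a subunit median from -1.20 to -0.97 there. In sam1 against BY4741, 1 member was lower with the 1 RPKM minimum, beside 12.2% of all genes. Under median-of-ratios scaling 1 was lower, beside 8.66%. Leaving out a culture gave a subunit median from -0.13 to -0.10. In sam1 against ser33, leaving out a culture gave a subunit median from -0.37 to -0.26. In the wild type of acs2-ts against BY4741, the fit of 2 groups gave 6 lower, median-of-ratios scaling 2 higher, and leaving out a culture 6 to 16 lower. In the wild type of pyk1 against BY4741, the first libraries gave 2 lower, the fit of 2 groups 9 higher and 0 lower, median-of-ratios scaling 3 higher and 8 lower, and leaving out a culture 7 to 11 higher and 0 to 2 lower. In the wild type of acs2-ts, the fit of 2 groups called 20% of all genes lower, and median-of-ratios scaling 27.4% higher. In the wild type of pyk1, the fit of 2 groups called 37.1% of all genes higher and 12.8% lower. Median-of-ratios scaling called 27.8% higher and 28.4% lower there, and the first libraries 13% lower. Without 1 culture at a time, the subunit median there was 0.22 to 0.31 and that of all genes 0.27 to 0.30. The causes were not tested. The second libraries alone, chosen after seeing the data, kept each count within 1.5 times.

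Replicate numbers were shared by ser33 and BY4741 in the titles and by acs2-ts and its wild type in the descriptions, with correlations of deviations of -0.17 and 0.12 across genes, and do not show a pairing. With the replicate block the counts were 0 in ser33, beside 0% of all genes, and 32 lower in acs2-ts, beside 78.4%. With the numbers of ser33 crossed the count was 0, beside 0%. No paired analysis was possible for the other comparisons because the groups share fewer than 2 numbers. With 2 cultures per strain, small changes such as those of ser33 cannot be called or dismissed.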
